A study of Mus musculus with 6 samples.

Results

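The transcriptome of the prefrontal cortex of group-housed mice is described here from 3 libraries, which are all of the group-housed ones among the 6 libraries of the study. The libraries were chosen by their housing label and no measured value entered the choice. They came from wild-type C57BL/6 mice (C57BL/6J in the growth protocol) of 8 to 10 weeks that were housed in groups for 6 days before the brain was removed and the prefrontal cortex dissected. No transgene, drug or surgery is named for them. The labels number the libraries as replicates 1, 2 and 3 without saying whether each is a separate mouse, so the spread between them may be technical in part. Levels are given as TPM (transcripts per 1000000), which are read counts divided by the exon length of the gene and scaled to the same total in each library, so that genes can be compared with each other. Where 3 values are listed they belong to replicates 1, 2 and 3 in that order, and a value after ± is the SD over them (n = 3). With a single group there was no contrast to test, so every difference below is a description of these libraries.

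The prefrontal cortex sits at the front of the cortical sheet and takes part in planning, working memory and social behaviour. Most of its neurons are excitatory pyramidal cells, which load glutamate into synaptic vesicles and are stacked in layers with different outputs. The rest are inhibitory interneurons, which release gamma-aminobutyric acid (GABA) and fall into classes marked by the peptides and calcium-binding proteins they make. Astrocytes clear transmitter and feed neurons, oligodendrocytes wrap axons in myelin, microglia are the resident immune cells, and the small vessels form the blood-brain barrier. Polyadenylated RNA from the whole dissected tissue mixes all of these, and in such bulk samples fewer cells of a type and less RNA per cell cannot be told apart.

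A count was seen for 16830 of 23284 genes in all 3 libraries, and 4757 genes were at 0 in all 3. The totals were 25858355, 30931952 and 32088512 counts. At least 1 TPM was reached in every library by 13906 genes, 59.7% of the table, and these are referred to as present. Levels of 10, 100 and 1000 TPM or more were reached in every library by 9659, 2033 and 86 genes. Transcript abundance was concentrated in few genes, since 956, 1007 and 937 genes held 50% of all TPM and 6041, 6099 and 5883 genes held 90%. Taking each library alone, 14414, 14312 and 14192 genes had at least 1 TPM, and their medians were 24.2, 25.1 and 24.0 TPM.

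Depth set a low limit of detection. Taking 3 counts as the most that a count of 0 allows, the limit for a gene with the table's median exon length of 2248 bases was 0.145, 0.130 and 0.120 TPM, and for a gene of 1000 exon bases it was 0.326, 0.293 and 0.269 TPM. These limits cover counting error only. The exact binomial expectation at 10% of each library's depth was 88.0%, 87.9% and 88.2% of the genes that the full library showed, and at 50% of the depth it was 96.7%, 96.6% and 96.8%. Genes seen in some libraries and missing from others were faint ones. In all, 1697 genes had a count in only 1 or 2 libraries, and none of them had more than 27 counts over the 3 libraries. TPM gives much weight to very short rows, as 725 rows of under 200 exon bases, which include the microRNA hairpins, held 0.326%, 0.311% and 0.239% of TPM on 0.00819%, 0.00693% and 0.00579% of the counts.

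**Figure D1:**
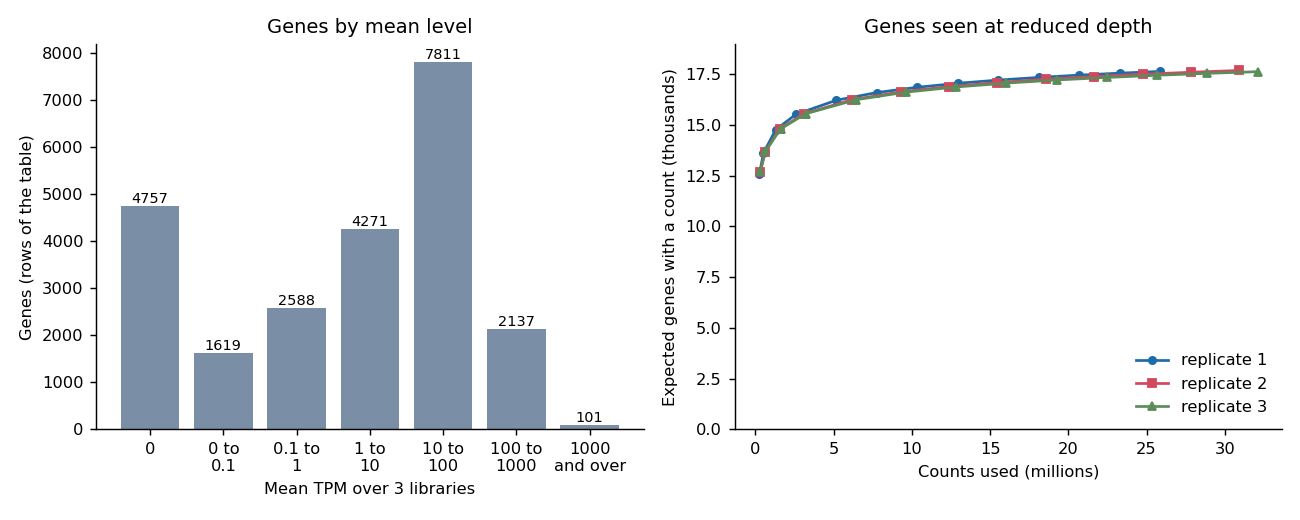
Left, number of genes (bars) by mean TPM over the 3 libraries, from 4757 genes at 0 to 101 genes at 1000 TPM or more. Right, expected number of genes with a count (vertical axis, in units of 1000) when each library is reduced to fewer counts (horizontal axis, in units of 1000000), with 1 line per library; the lines lie close together and flatten well before the full depth.

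Families that belong to other tissues mark the lower edge of the scale. Of 1101 olfactory receptor genes, which sense odours in the nose, 1032 were at 0 in every library and 5 were present. Those present were Olfr316, Olfr464, Olfr287, Olfr78 and Olfr1344, and the highest, Olfr316, had 4.48, 4.56 and 4.39 TPM. Vomeronasal receptor genes, which serve pheromone sensing, were at 0 for 307 of 325. Of 39 Hox genes, which pattern the hindbrain, spinal cord and trunk and are silent in the forebrain, 33 were at 0 and none was present. Among 42 beta-defensin genes none was present, and in a liver list of 12 genes Alb (serum albumin) was at 0 and Apoa2 was highest with 3.55, 2.25 and 2.76 TPM. Insulin (Ins1, Ins2), growth hormone (Gh) and prolactin (Prl) were at 0 in all 3 libraries.

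Some genes named for other tissues were plainly measured. Acta1, the actin of skeletal muscle, had 38.7, 35.9 and 42.9 TPM and Tnnt2, a heart troponin, had 20.4, 19.2 and 17.1 TPM, while Ckm, the muscle creatine kinase, had 1.54, 1.52 and 1.14 TPM. Among 47 keratin genes, Krt222 had 43.7, 56.9 and 49.6 TPM and Krt12 had 36.9, 56.5 and 46.3 TPM, whereas Krt5 and Krt14, the keratins of basal skin, averaged 0.0149 and 0 TPM. Krt12 had the widest range of these, and replicate 2 was its highest library.

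The promoters of present and silent genes differed in base composition, and a few are shown because they carry that contrast. RefSeq promoter sequences (build GRCm38.p6) matched 15701 genes of the table by symbol, and the 250 bases before each start were searched on both strands for GGGCGG, the core of a GC box, for TATAAA, the core of a TATA box, and for the promoter motif CCAAT. Each motif was scored separately as found or not found, and the motifs share no overlap that would count a match for another motif. GGGCGG was found in 56.6% of 12641 promoters of present genes, in 7.13% of 3098 promoters of genes at 0 and in 43.8% of all 19041. TATAAA showed the opposite order, with 6.52% for present genes, 28.3% for genes at 0 and 11.3% overall. CCAAT was similar in both, at 34.7% and 38.7% beside 35.3% of all promoters. The median GC content of these stretches was 60% and 42%, and 33.6% for olfactory receptor genes, and the shares were not adjusted for base composition. The genes at 0 include many members of large families that share ancestry, and 39.2% of the 926 olfactory receptor promoters held TATAAA. Promoters of the 100 most abundant genes, of which 71 matched, held GGGCGG in 57.1% and TATAAA in 11.2%, close to all present genes for the first motif.

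The 100 bases before the start are printed below 5′ to 3′ on the strand of the gene, with matches to the GC box, to the TATA box or to CCAAT on either strand in capitals. Nrgn is the most abundant gene with a single RefSeq promoter, Eef1a1 and Eef1a2 are a pair of paralogs with different tissue ranges, and Olfr52 is the lowest-numbered olfactory receptor gene at 0 TPM with TATAAA in this window.
Nrgn, chr9:37552746-37552845, minus strand: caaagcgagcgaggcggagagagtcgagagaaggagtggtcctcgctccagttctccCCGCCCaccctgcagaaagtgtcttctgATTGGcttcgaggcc
Eef1a1, chr9:78481725-78481824, minus strand: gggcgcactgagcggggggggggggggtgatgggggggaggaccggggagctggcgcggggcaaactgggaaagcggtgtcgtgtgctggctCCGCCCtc
Eef1a2, chr2:181157016-181157115, minus strand: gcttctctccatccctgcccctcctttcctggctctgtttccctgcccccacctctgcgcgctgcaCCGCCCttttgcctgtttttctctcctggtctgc
Olfr52, chr2:86182110-86182209, minus strand: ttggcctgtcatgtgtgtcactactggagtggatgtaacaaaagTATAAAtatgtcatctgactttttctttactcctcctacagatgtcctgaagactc
The sequences of the 3 expressed genes each hold a single GC box match (read as CCGCCC on the strand shown), and Nrgn also holds CCAAT on the other strand, while Olfr52 holds TATAAA. A match is a description of the letters and not a measured binding site.

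The most abundant transcripts were those of synaptic, calcium-binding, secreted and energy-metabolism genes. The 10 most abundant genes held 3.60% ± 0.194 of all TPM, the top 100 held 16.9% ± 0.462 and the top 1000 held 50.6% ± 0.793. Snap25, the membrane protein of the nerve terminal that drives vesicle fusion, came first on average with 5006, 5787 and 5595 TPM (mm9 chr2:136539186-136608164, 2119 exon bases). Fth1, the heavy chain of the iron store ferritin, had 5748, 3983 and 4756 TPM (chr19:10057193-10059582). Nrgn, the postsynaptic calmodulin-binding protein neurogranin, had 4640.4, 4023 and 5003 TPM (chr9:37352078-37360330). The order of these 3 was not stable, since Fth1 led in replicate 1 and Snap25 in replicates 2 and 3.

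**Figure D2:**
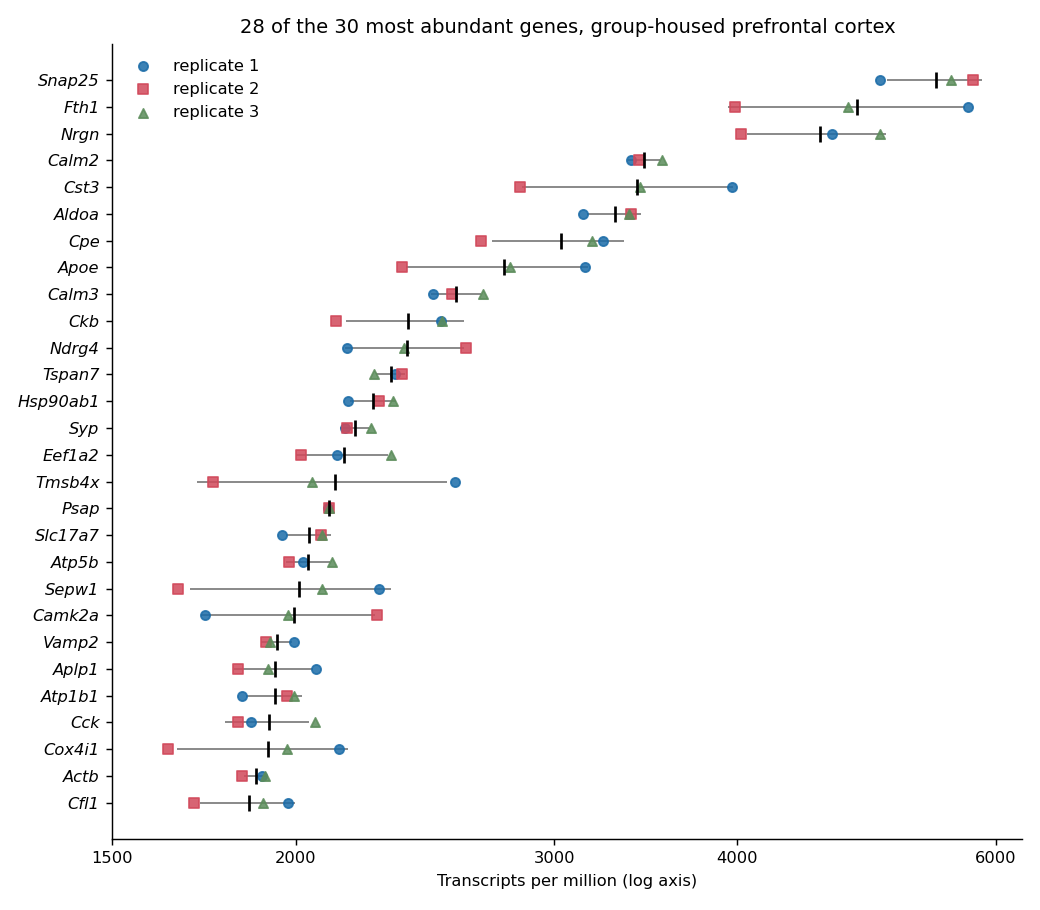
TPM (log axis) of 28 of the 30 genes of highest mean TPM; points are the 3 libraries, black ticks the mean and grey lines 1 SD to each side. Snap25 ranges from 5006 to 5787 TPM, and the genes with the widest spread, Fth1, Cst3, Apoe, Tmsb4x, Sepw1 and Cox4i1, are lowest in replicate 2.

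Calcium signalling genes filled several of the first places. Calm2 and Calm3 encode the same calcium sensor, calmodulin, and had 3387, 3425 and 3555 TPM and 2481, 2556 and 2682 TPM in turn. Calm2 was above Calm3 in every library. Of 20 genes of the calmodulin and calcium list, all were present and 12 were among the 100 most abundant. Camk2a, the kinase subunit that calmodulin switches on at excitatory synapses, had 1733, 2273 and 1974 TPM and its partner subunit Camk2b 711, 734 and 705 TPM, and their ratio was 2.78 ± 0.330. The list held 2.69% ± 0.0823 of all TPM.

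Genes of vesicle release held a similar share. All 28 members were present and together held 2.77% ± 0.157 of TPM, with 11 of them among the 100 most abundant genes. After Snap25, Syp (synaptophysin) had 2161, 2168 and 2252 TPM, Slc17a7, the vesicular glutamate transporter of cortical neurons, had 1958, 2081 and 2085 TPM, and Vamp2, the vesicle-side fusion protein, had 1996, 1910.2 and 1919.8 TPM. These 3 varied little between libraries. Syt1, the calcium sensor of fast release, had 1158, 1504 and 1326 TPM. In 21 of 28 members the lowest library was replicate 1, beside 41.0% of the 11317 genes compared; under TMM and DESeq2 scaling the count was 19 and 20.

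Energy supply and the cytoskeleton filled much of the rest. Of 92 nuclear genes of the respiratory chain and ATP synthase, 89 were present, and the list held 3.31% ± 0.292 of TPM, with Atp5b, the catalytic ATP synthase subunit, at 2024, 1978 and 2117 TPM and Cox4i1 of cytochrome oxidase at 2139, 1636 and 1973 TPM. Aldoa, the glycolytic aldolase, had 3139, 3387 and 3374 TPM, and its brain paralog Aldoc, an astrocyte gene, had 1431, 1279.5 and 1336 TPM. Tmsb4x, an actin-sequestering peptide, had 2569.9, 1757 and 2051 TPM, Actb, cytoplasmic actin, 1897, 1839 and 1905 TPM and Cfl1, which severs actin filaments, 1974, 1705 and 1899 TPM. Mitochondrially encoded genes were not analysed here.

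Secreted and lipid- or iron-handling proteins made a further group of 23 genes with 3.05% ± 0.273 of TPM, 12 of them among the 100 most abundant. Cst3, the protease inhibitor cystatin C, had 3966, 2846 and 3434 TPM, Cpe, which trims peptide hormones, 3241, 2674 and 3184 TPM, and Apoe, the main lipid carrier of the brain, 3150.2, 2364 and 2802 TPM. Replicate 2 was lowest for each of these. Psap, the precursor of the lysosomal saposins, had 2104, 2108 and 2108 TPM. App, the amyloid precursor protein, had 1642, 1954 and 1882 TPM and its homolog Aplp1 2064, 1826 and 1916 TPM.

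Ranking by counts in place of TPM gave another list. Only 60 of the 100 most abundant genes by TPM were among the top 100 by counts, and 2 of the top 10, because long transcripts collect more reads: the median exon length of the top 10 was 1558.5 bases by TPM and 4679.5 bases by counts. Camk2a (5358 exon bases) ranked 2 by counts and 23 by TPM. Kif5a, a motor protein of axonal transport (7006 exon bases), ranked 3 and 44, Meg3, an imprinted noncoding RNA (12906 exon bases), 6 and 185, and Slc1a2, the main glutamate transporter of astrocytes (12068 exon bases), 7 and 203. Snap25 was first on both scales. The row for the precursor of ribosomal RNA, Rn45s, ranked 9 by counts with 1574, 879 and 868 TPM and was highest in replicate 1.

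Several genes that are usually taken as abundant in every cell had low values here, and many of these have near-identical copies elsewhere in the genome. Gapdh, the glycolytic enzyme often used as a reference, had 12.6, 9.76 and 9.91 TPM, and 89 annotated pseudogenes matched its transcript (GENCODE vM21, at least 95% identity over at least 200 bases). Ppia, cyclophilin A, had 7.09, 6.77 and 6.10 TPM and 20 such pseudogenes. Eno1, the general enolase, had 0.184, 0.165 and 0.152 TPM and 3 pseudogenes, while its neuronal paralog Eno2 had 1430.0, 1442 and 1443 TPM. Cytoplasmic actin showed the same split, with Actg1 at 22.9, 19.6 and 25.1 TPM (7 pseudogenes) and Actb at 1880.4 TPM on average (1 pseudogene). Tuba1c had 0.769, 0.445 and 0.908 TPM with 7 pseudogenes. Its close alpha-tubulin paralog Tuba1a had 896, 876 and 894 TPM and also matched 7, so this pair did not differ in pseudogene number.

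The pattern had exceptions. Eef1a1, the general translation elongation factor, had 1442, 1250.1 and 1308 TPM with 10 pseudogenes, and Eef1a2, the form of neurons and muscle, had 2133, 2016 and 2323 TPM, a ratio of Eef1a2 to Eef1a1 of 1.48, 1.61 and 1.78. Atp6v0c, a proton pump subunit, had 0.378, 0.340 and 0.390 TPM with only 2 pseudogenes. Over ribosomal protein genes the median was 66.5 TPM for 9 genes with no such pseudogene, 88.1 TPM for 34 with 1 to 4, 24.8 TPM for 35 with 5 to 19 and 27.6 TPM for 7 with 20 or more. Over all protein-coding genes present in the 3 libraries the same 4 classes had medians of 27.7, 32.9, 32.3 and 24.9 TPM. That filter leaves out genes under 1 TPM, which the ribosomal classes include. Without it the medians over protein-coding genes were 8.86, 10.2, 0.231 and 0 TPM. Of the 50 genes with 20 or more pseudogenes 15 were present, beside 11080 of 16949 with none. The kinds of genes in each class were not matched. How the counting treated reads that match several places is not given in the sources used here, and its part in these values was not tested. Levels of genes with many copies are therefore uncertain. Values of the adult globin genes Hbb-b1, Hbb-b2, Hba-a1 and Hba-a2 are uncertain as well, since they were listed at 0 although the beta-globin row Beta-s had 69.9, 6.88 and 30.6 TPM. Hba-a1 and Hba-a2 each matched 0 such pseudogenes, and why they were at 0 was not tested.

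Markers of cortical excitatory neurons and of frontal and cingulate cortex were present in the dissected tissue. All 12 excitatory neuron markers were present and summed to 9443, 9728 and 10323 TPM. Slc17a7 exceeded its subcortical counterpart Slc17a6 (7.495, 10.9 and 11.2 TPM) by 261, 190.5 and 185 times. Tbr1, a transcription factor of cortical projection neurons, had 137, 135 and 136 TPM, Neurod6 135, 161 and 160.0 TPM and Emx1 53.5, 53.2 and 56.2 TPM. All 12 frontal and cingulate markers were present, with Crym, a thyroid hormone binding protein, at 187, 210.5 and 222 TPM and Nov, a secreted matrix protein, at 143, 160.3 and 141 TPM. Presence does not set frontal cortex apart, since 59.7% of the table reached it and no other cortical region was measured. Crym, Etv1 and Bcl11b are also in the layer 5 list, and Wfs1 is in the hippocampal list. Pan neuronal markers summed to 15992, 17056 and 17067 TPM, within a narrow band over the 3 libraries.

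Markers of midbrain, hindbrain and hypothalamus were low or at 0. Of 16 midbrain and hindbrain markers only Th, the catecholamine synthesis enzyme, was present (8.97, 4.51 and 5.16 TPM), and En1 and Slc6a5 were at 0. Of 14 hypothalamic markers 2 were present, and Sim1 was at 0. Lists named for other forebrain regions were present in larger part, with 12 of 14 olfactory bulb and migratory stream markers, 8 of 12 thalamic and habenular markers and 8 of 14 hippocampal markers. The highest mean of a member was 102 TPM in the olfactory list, for the synaptic vesicle gene Synpr, 31.4 TPM in the thalamic list and 124 TPM in the hippocampal list. Those lists summed to 211, 194 and 182 TPM, 99.6, 105 and 93.5 TPM and 246, 314 and 285 TPM in turn. Choroid plexus was scarce, as Ttr, its most abundant transcript, had 1.69, 0.961 and 0.441 TPM. Blood cell markers summed to 96.2, 19.5 and 46.9 TPM, of which Beta-s made most in replicates 1 and 3. A muscle list summed to 75.6, 69.7 and 73.6 TPM and a testis list to 8.62, 6.63 and 7.16 TPM.

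Striatal markers stood apart from this. Of 20 genes of the list 17 were present, and their sum was 1481, 568 and 631 TPM. Replicate 1 was the highest library for 14 of the 16 members that passed the level filter used for spread (mean of at least 5 TPM and 100 counts), beside 37.0% of the 11317 genes that passed it, and the count was the same under TMM and DESeq2 scaling. Drd2, a dopamine receptor of striatal projection neurons, had 30.2, 1.96 and 4.69 TPM and Adora2a, the adenosine receptor of the same cells, had 41.3, 2.51 and 6.41 TPM. Penk, the precursor of enkephalin, had 339, 113 and 115 TPM and Ppp1r1b, the dopamine-regulated phosphatase inhibitor DARPP-32, had 372, 119 and 151 TPM; the row of Ppp1r1b overlaps a gene on the other strand. Replicates 2 and 3 were close to each other for Penk and both lay below replicate 1 for all 4 genes. Foxp1 (41.5, 43.7 and 41.8 TPM) and Pdyn (29.5, 38.5 and 35.9 TPM) did not share this order, and the reason was not tested.

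**Figure D3:**
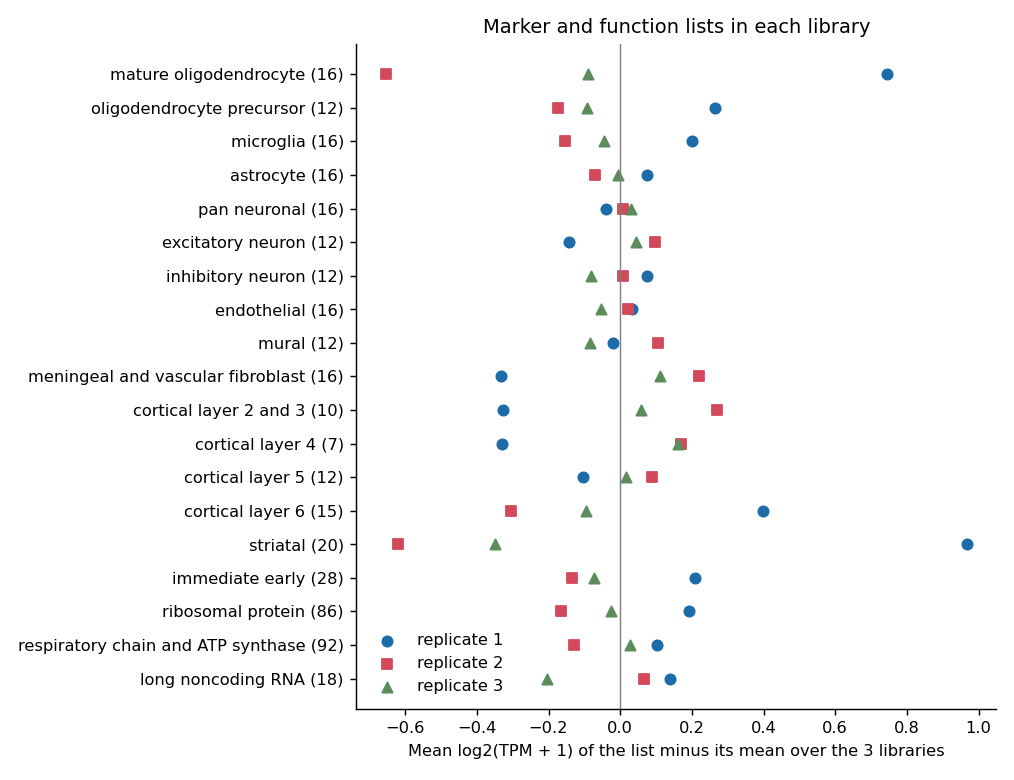
For each marker or function list (number of measured members in brackets), the mean log2(TPM + 1) of its members in each library minus the mean over the 3 libraries, with 1 point per library. Replicate 1 is far to the right for the striatal, mature oligodendrocyte and layer 6 lists and to the left for the layers 2 and 3, layer 4 and fibroblast lists.

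Inhibitory neuron markers were all present and summed to 1003, 1056 and 940.1 TPM. Gad1 and Gad2, the enzymes that make GABA, had 351, 364 and 329 TPM and 87.1, 98.1 and 78.0 TPM in turn, with Gad1 above Gad2 by 4.03, 3.71 and 4.21 times. Slc32a1, which loads GABA into vesicles, had 125, 111 and 111 TPM. Slc17a7 was 5.58, 5.72 and 6.34 times as abundant as Gad1. These are ratios of transcripts and not of cells, since transcript number per cell is not known.

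Interneuron classes ranked by their marker transcripts as follows. Cck, a peptide of basket cells that pyramidal cells also make, was highest with 1863, 1826 and 2060.4 TPM. Sst, the peptide of cells that target dendrites, had 1649.6, 1162 and 1171 TPM and Npy, found in part of the same cells, 655, 503 and 539 TPM. Lamp5, listed in the table as 6330527O06Rik and shared by neurogliaform and upper-layer pyramidal cells, had 325, 525 and 537 TPM. Pvalb, the calcium buffer of fast-spiking cells, had 198, 136 and 162 TPM and Vip, the peptide of cells that inhibit other interneurons, 88.4, 117 and 106 TPM. The ranges of Cck, Sst and Npy did not overlap, whereas Npy overlapped Lamp5, and Pvalb overlapped Calb1 (132, 175 and 165 TPM) and Penk. The peptide genes Sst, Npy and Cck give many transcripts per cell, so their order says little about cell numbers.

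Lower on the scale, Cort, a peptide close to Sst, had 47.3, 41.2 and 35.3 TPM, Calb2 23.9, 23.1 and 24.3 TPM, Kit 19.5, 24.8 and 20.6 TPM and Reln, a large matrix protein of superficial interneurons, 14.3, 23.1 and 16.3 TPM. Htr3a, a serotonin-gated channel, Nos1, which makes nitric oxide, and Crh, a stress peptide, averaged 11.5, 11.3 and 11.0 TPM and did not differ beyond their spread. Chodl, the marker of long-range inhibitory cells, averaged 1.01 TPM and fell short of 1 TPM in replicates 2 and 3. Sst to Pvalb was steady at 8.31, 8.55 and 7.23, while Pvalb to Vip was 2.25, 1.16 and 1.53 and highest in replicate 1.

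Astrocyte markers were all present and summed to 5484, 5039.5 and 5213 TPM. Glul, which turns glutamate into glutamine, had 1491, 1243 and 1359.9 TPM and Slc1a2 583, 671 and 602 TPM. Aqp4, the water channel of astrocyte endfeet, had 54.4, 55.5 and 53.5 TPM and Gfap, the filament protein of white matter and reactive astrocytes, 75.0, 53.9 and 77.9 TPM. The sum varied less over the libraries than those of the other glial lists.

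Oligodendrocyte markers varied most among the cell type lists with all members present. The 16 genes summed to 6401, 2387 and 3619.9 TPM, and all 16 were highest in replicate 1 and lowest in replicate 2, under TPM, TMM and DESeq2 scaling. The median difference of replicate 1 from replicate 2 was 1.42 in log2(TPM + 1), beside -0.04 for all 11317 genes. Mbp, which compacts myelin, had 748, 279.7 and 410.4 TPM and Mag, at the contact with the axon, 418, 156 and 235 TPM. The 3 libraries were well apart for each of these. Precursor cell markers moved the same way by less, with a list sum of 560.4, 361 and 408 TPM, 10 of 11 members compared highest in replicate 1 and a median difference from replicate 2 of 0.41. Members differed in their spread, with Pdgfra at 25.4, 23.5 and 22.04 TPM and Cspg4 at 9.97, 9.53 and 9.64 TPM; Olig1 (210.4, 98.8 and 137 TPM) and Bcas1 (89.0, 34.3 and 48.8 TPM), which later stages of the lineage also make, spread more.

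Microglial markers were all present and summed to 1363, 1039 and 1139.9 TPM, with all 16 highest in replicate 1 under the 3 scalings, beside 37.0% of all genes compared by TPM. The margin was smaller than for myelin, with a median difference from replicate 2 of 0.37 in log2(TPM + 1). Cx3cr1, the fractalkine receptor, had 59.0, 53.1 and 51.6 TPM, P2ry12, a receptor of resting microglia, 62.4, 48.5 and 46.6 TPM, and C1qa, a complement subunit, 145, 98.7 and 127 TPM. Lymphocyte genes were near 0, as Cd3e averaged 0.110 TPM and Cd8a 0.0312 TPM.

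Vascular lists were small and their sums varied little. Endothelial markers summed to 511, 468 and 465 TPM, with Cldn5, the tight junction protein, at 87.7, 47.9 and 58.6 TPM and Flt1, a growth factor receptor, at 12.6, 16.4 and 13.0 TPM. Mural markers summed to 249, 235 and 219 TPM and were led by Vtn (141, 111 and 115 TPM) and Rgs5 (29.97, 36.5 and 28.8 TPM). The meningeal and vascular fibroblast list ran against the glial lists, with 1539, 2294 and 2454 TPM and 11 of 13 members lowest in replicate 1 under all 3 scalings, beside 41.0% of all genes compared by TPM. Ptgds, a prostaglandin synthase of the meninges that oligodendrocytes also make, gave most of that sum with 1286, 2001 and 2176 TPM. Igf2, a growth factor of the meninges, had 19.2, 43.0 and 35.9 TPM and Ogn, a matrix proteoglycan, 2.91, 8.12 and 9.15 TPM.

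Layer markers also split by library. All 9 of the layers 2 and 3 markers that passed the level filter were lowest in replicate 1 under all 3 scalings, beside 41.0% of all genes compared by TPM, and the list summed to 643, 1017 and 967 TPM. These 9 had a median of 6272 exon bases and a median replicate 1 minus 2 difference of -0.569 in log2(TPM + 1). Over all compared genes of 4906 to 6433 exon bases that median was -0.195. Cux2, a transcription factor of upper-layer neurons, had 41.9, 76.9 and 64.4 TPM and Rasgrf2 56.0, 106 and 86.3 TPM. For layer 6 the order was turned, since 12 of 14 markers were highest in replicate 1 (11 under TMM or DESeq2 scaling), beside 37.0% of all genes compared by TPM. The layer 6 list shares Drd1a with the striatal list, and without it 11 of 13 were highest in replicate 1 (10 under TMM or DESeq2 scaling). Rprm had 181, 102 and 124 TPM, Ctgf and Cplx3, markers of the deepest sublayer, 56.9, 21.2 and 30.005 TPM and 33.6, 10.8 and 15.9 TPM in turn, and Foxp2 10.2, 4.88 and 5.61 TPM. The ratio of Cux2 to Tle4, a layer 6 repressor with 46.8, 38.9 and 41.8 TPM, was 0.896, 1.98 and 1.54.

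Layer 5 markers did not move as a block, with 7 of 10 lowest and 3 highest in replicate 1, beside 41.0% and 37.0% of all genes compared. Pcp4, a calmodulin regulator that is also made outside the cortex, dominated the sum with 1546, 973 and 1075 TPM. Fezf2 and Bcl11b, which specify neurons that project below the cortex, had 51.9, 62.8 and 58.9 TPM and 30.4, 23.1 and 23.9 TPM in turn, and Parm1 had 23.9, 50.9 and 38.5 TPM. The median layer 4 marker, at 10.6 TPM, was the lowest of the layer lists, beside 15.6 TPM for layer 6. Rorb had 8.95, 10.4 and 12.5 TPM and Scnn1a, the lowest, 1.24, 1.26 and 1.51 TPM, while Whrn, the highest, averaged 23.1 TPM. In mice this region has little or no granular layer 4, which these levels do not test. Of 6 layer 4 markers compared, 5 were lowest in replicate 1, beside 41.0% of all genes compared. Their median replicate 1 minus 2 difference was -0.624 in log2(TPM + 1). Replicate 1 was thus high for striatal, myelin, microglial and layer 6 markers and low for upper-layer and meningeal markers at once. The labels give no dissection record for single libraries, and whether the cut, the animal or the preparation differed was not tested.

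Glutamate receptor genes, which carry fast excitation, were all present. By mean level they were led by Grin1, the subunit that all NMDA receptors need, at 289, 345 and 323 TPM, then the kainate subunit Grik5 at 267, 263 and 264 TPM and the AMPA subunits Gria2 at 188, 253 and 193 TPM, Gria1 at 189.8, 202 and 182 TPM and Gria3 at 172, 213 and 179 TPM. The 3 AMPA subunits overlapped each other. The NMDA partner subunits were far lower and unsteady, with Grin2b at 5.26, 16.1 and 8.95 TPM and Grin2a at 3.78, 12.4 and 6.43 TPM, both highest in replicate 2. Their rows have 7505 and 4512 exon bases, against 4230 for Grin1. Grin2c and Grin2d, of other cells and ages, had 43.7, 41.9 and 40.5 TPM and 13.1, 14.2 and 12.3 TPM in turn.

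GABA-A receptors are pentameric channels whose subunits set their location and drug response. Of 16 subunit genes 12 were present. Among them the alpha subunit Gabra3 had 144, 181 and 163 TPM and the alpha subunit Gabra2 26.4, 39.8 and 34.1 TPM. The beta subunit Gabrb2 had 99.8, 132 and 118 TPM and the extrasynaptic subunits Gabrd and Gabra5 171, 151 and 164 TPM and 63.6, 75.6 and 77.0 TPM in turn. Ranges of Gabra3 and Gabrd overlapped, and the row of Gabra5 shares bases with a gene on the other strand, as do those of Grin1, Jak1, Bcas1 and Igf2. Gabra6, of cerebellar granule cells, averaged 0.257 TPM, Gabrq 0.446 TPM and Gabre 0.119 TPM, and Gabrp was at 0.

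The study's title names interferon-γ, a cytokine of lymphocytes that signals through a 2-chain receptor and the kinases Jak1 and Jak2. Ifng itself had no count in any group-housed library, which allows up to 0.270, 0.243 and 0.223 TPM at 3 counts, and the chemokine Cxcl9 was also at 0. The receptor chains were present, with Ifngr1 at 25.99, 20.7 and 20.8 TPM and Ifngr2 at 59.7, 69.8 and 68.9 TPM, and Ifngr2 was above Ifngr1 in every library. Jak1 had 107, 136 and 134 TPM and Jak2 25.6, 29.1 and 29.2 TPM. In all, 20 of 25 genes of the pathway list were present.

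Among the genes that the pathway switches on, those of class I antigen display were highest, with B2m, the light chain, at 244, 229 and 255 TPM and the heavy chains H2-D1 and H2-K1 at 46.9, 41.9 and 51.2 TPM and 42.8, 33.2 and 40.9 TPM in turn. The heavy chains have close relatives in the same gene cluster, so their values are uncertain. The guanosine triphosphatases Irgm1, Igtp and Gbp3 had 12.1, 13.5 and 14.1 TPM, 6.71, 7.97 and 8.34 TPM and 3.62, 3.74 and 3.71 TPM in turn. Class II genes, which microglia and other phagocytes make, were low, as Cd74 had 5.91, 7.18 and 8.50 TPM and H2-Aa 3.46, 2.93 and 3.69 TPM. Cxcl10 averaged 0.244 TPM on 3, 4 and 1 counts, which is too few to order the libraries.

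Across the 11317 genes with a mean of at least 5 TPM and 100 counts, the libraries were close. The median SD of log2(TPM + 1) was 0.122, with 0.0301 and 0.357 as the 5th and 95th percentiles, and the median coefficient of variation was 8.80%, or 7.94% after the part from counting was subtracted. The SD was above 0.5 for 208 genes, 1.84% of those compared, and the highest library was more than 2-fold above the lowest for 230 genes, 2.03%. Replicates 2 and 3 were most alike (Pearson r of log2 values across genes 0.992) and replicates 1 and 2 least (0.978), with replicates 1 and 3 at 0.989. These correlations are across genes, which share libraries and are not independent replicates.

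**Figure D4:**
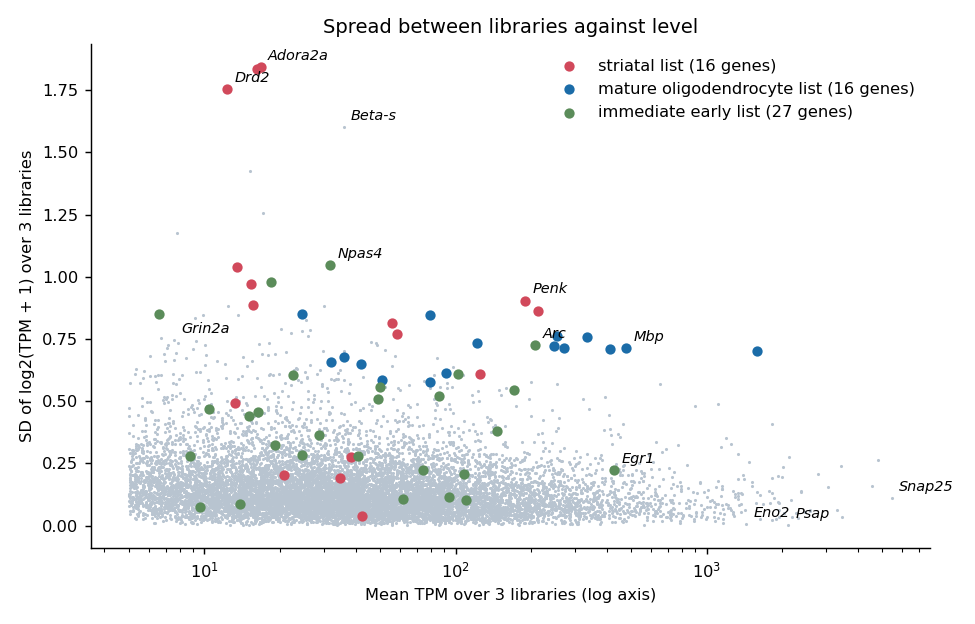
SD of log2(TPM + 1) over the 3 libraries (vertical axis) against mean TPM (log axis) for the 11317 genes compared (grey), with the members of 3 lists that passed the filter in colour. All mature oligodendrocyte genes lie above 0.5 at every level, the striatal list reaches 1.84 at Adora2a, and immediate early genes reach 1.05 at Npas4.

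Striatal and myelin genes were the most frequent list members among the most variable genes. Of the 50 genes of highest SD, 38 were highest in replicate 1 and 11 in replicate 2, under TPM, TMM and DESeq2 scaling, beside 37.0% and 46.3% of all genes compared by TPM. The striatal list gave 10 of the 50 (20% of them, beside 0.141% of the 11317 genes compared), the mature oligodendrocyte list 8 (16% beside 0.141%) and the immediate early list 4 (8% beside 0.239%). Adora2a came first with an SD of 1.84 and a 16.5-fold range, followed by Tmem90a, a synaptic membrane protein now named Syndig1l, with 40.2, 2.58 and 5.57 TPM and an SD of 1.84, and by Drd2 with an SD of 1.76. Beta-s, the globin row, followed with an SD of 1.60 and a 10.2-fold range. The last gene inside the 50 had an SD of 0.712 and the first outside 0.710, so the edge of the list is arbitrary.

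Further down, the list held Lrrc10b (34.2, 4.33 and 7.17 TPM), Thbs4, a matrix protein that promotes synapses (14.2, 2.01 and 7.04 TPM), and Rxrg, a retinoid receptor (28.9, 7.40 and 9.72 TPM). Rgs9, which shortens dopamine receptor signals, had 26.6, 6.5998 and 7.35 TPM and Drd1a, the other main dopamine receptor of the striatum, 28.4, 8.98 and 9.31 TPM. All of these were highest in replicate 1. Nkx6-2, a transcription factor of oligodendrocytes, had 20.9, 5.43 and 11.1 TPM, with a gene on the other strand overlapping its row, and Opalin, a myelin membrane protein, 132, 40.4 and 65.2 TPM. The order replicate 1, then 3, then 2 was shared by both genes. Kcnh7, a potassium channel, was of the opposite kind, with 6.49, 23.1 and 11.3 TPM and the maximum in replicate 2.

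Activity-dependent genes did not vary as a block. Npas4, a transcription factor that neurons switch on within minutes of calcium entry, had 61.2, 18.3 and 15.5 TPM, Btg2 34.0, 12.7 and 8.33 TPM and Arc, which remodels synapses, 339, 138 and 145 TPM. Replicate 1 was the highest for these 3 and for Fos (71.8, 32.8 and 44.9 TPM) and Junb (148, 63.2 and 96.1 TPM). The reverse order held for Egr3 (105, 203 and 203 TPM), Homer1 (54.0, 107 and 95.4 TPM) and Egr1 (359, 486 and 443 TPM), where replicate 1 was lowest. Of 27 list members compared, 15 were highest and 7 lowest in replicate 1, beside 37.0% and 41.0% of all genes compared. The median difference of replicate 1 from replicate 2 was 0.50 in log2(TPM + 1), beside -0.04 for all genes, so more members leaned to replicate 1 without a direction that all shared. Cyr61, a matrix signal of vessels and astrocytes, had 11.6, 5.20 and 2.92 TPM.

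Long noncoding RNAs were often lowest in replicate 3. Meg3 had 732, 825 and 395 TPM, Snhg11 1048, 1056 and 589 TPM, Miat 214, 248 and 126 TPM and Malat1, a nuclear RNA of speckles, 168, 161 and 101 TPM. Of 13 list members compared, 8 were lowest in replicate 3 under all 3 scalings, beside 29.0% of all genes compared by TPM. Rian (341, 348 and 279.8 TPM) and Mirg (51.9, 42.4 and 30.1 TPM), from the same imprinted cluster as Meg3, were lowest there too, while Peg13 (231, 288 and 271 TPM) was not. Nuclear RNA content was not measured, and its part was not tested.

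Exon length ordered the differences between libraries across the whole table. The median log2 difference of replicate 1 minus replicate 2 went from 0.24 in the first of 10 bins of exon length (30 to 1246 bases) to -0.32 in the last (6434 to 23495 bases). For replicate 1 minus 3 it went from 0.11 to -0.10, and for replicate 2 minus 3 from -0.13 to 0.23. Spearman's rho of these differences with exon length across genes was -0.54, -0.26 and 0.53, given as a description of 11317 genes from the same libraries. Replicate 2 therefore had relatively more signal in long genes and replicate 1 in short ones.

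**Figure D5:**
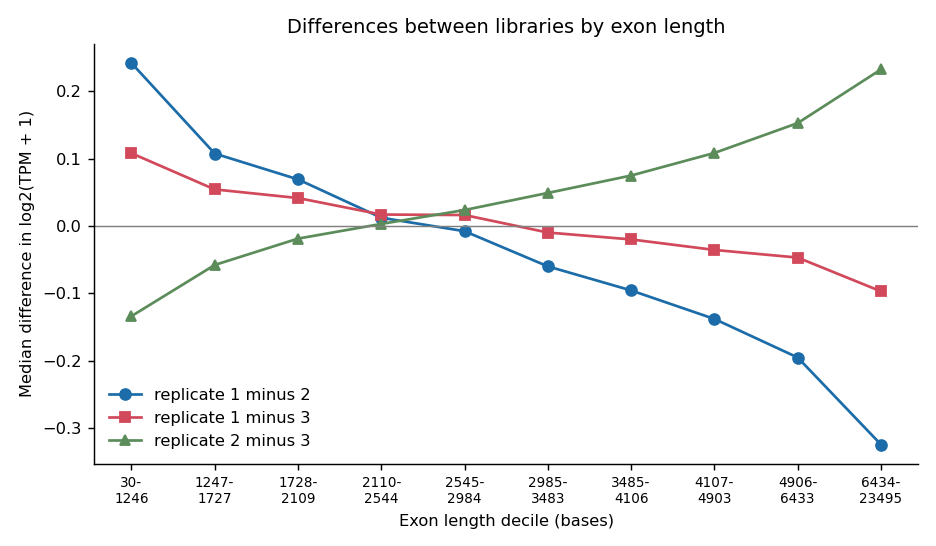
Median difference in log2(TPM + 1) between pairs of libraries (vertical axis) for 10 bins of exon length (horizontal axis, bases). The line for replicate 1 minus 2 runs down from 0.24 to -0.32 and that for replicate 2 minus 3 runs up from -0.13 to 0.23.

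Gene families of different exon length sat on opposite sides of that gradient, some of them beyond the median of their length bin. For replicate 1 minus 2 the median was 0.457 for ribosomal protein and 0.259 for respiratory chain genes. It was 0.242 for all compared genes of 30 to 1246 exon bases. For potassium channel genes it was -0.244, beside -0.0955 for all compared genes of 3485 to 4106 exon bases. Ribosomal protein genes, with a median of 740 exon bases, summed to 14557, 10583 and 12586 TPM, and 53 of 60 compared were highest in replicate 1 under all 3 scalings, beside 37.0% of all genes compared by TPM. Respiratory chain genes, with a median of 758 bases, had 65 of 81 members lowest in replicate 2 (68 under TMM or DESeq2 scaling), beside 30.03% of all genes compared by TPM and 4324 and 4191 of the 11317 under TMM and DESeq2 scaling. Potassium channel genes, with a median of 3791 bases, had 42 of 62 highest in replicate 2 (35 and 36 under TMM and DESeq2 scaling), beside 46.3% of all genes by TPM and 4078 and 4211 of the 11317 under TMM and DESeq2 scaling. When the median deviation of its length bin was subtracted from each gene, a step added after the data were seen, 38 of the 50 most variable genes remained and the median SD was 0.0997. Adora2a, Tmem90a, Drd2 and Beta-s kept the first 4 places in that ranking. The median exon length of the mature oligodendrocyte list was 2610.5 bases and of the striatal list 2654 bases, near the middle of the scale. That of the layers 2 and 3 list was 6272 bases, toward the long end. Whether RNA integrity, library preparation or tissue makeup goes with this gradient was not tested.

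The least variable genes among the 4428 with a mean of at least 50 TPM had nearly equal values in the 3 libraries. Psap led with 2104, 2108 and 2108 TPM and an SD of 0.0017 in log2(TPM + 1). Uqcc, an assembly factor of the respiratory chain, had 56.0, 56.0 and 56.2 TPM, Psma1, a proteasome subunit, 179, 179 and 179 TPM, and Cend1, a protein of neurons that have left the cell cycle, 561, 564 and 562 TPM. Rit2, a neuronal small GTPase, had 129, 129.6 and 129 TPM, Neurod2, a transcription factor of excitatory neurons, 83.2, 82.6 and 83.1 TPM, and Eno2 1430.0, 1442 and 1443 TPM. The variance of Psap, Uqcc, Psma1, Cend1, Rit2 and Neurod2 was below what counting alone gives, as it was for 1284 (11.3%) of the 11317 genes. None of the 50 least variable genes stayed on the list under TMM or DESeq2 scaling. Their SDs were at most 0.0120, which is small beside the change that those scalings make to every gene. The median replicate 2 minus 3 difference of all genes was 0.0498 by TPM, -0.0129 under TMM and -0.0052 under DESeq2 scaling. The list shows how close values can be and not which genes are most stable.

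Genes used as references for quantitative PCR differed widely in spread. Actb had a coefficient of variation of 1.91%, Cyc1, a respiratory chain subunit, 2.51%, Atp5b 3.48%, Ywhaz, a signalling adaptor, 3.49%, Sdha 3.62% and Hprt, of purine salvage, 4.86%. These 6 were below the median of 8.80% for all genes compared. Rpl13a had 25.8% (489, 288 and 390.4 TPM) and Polr2a, the large subunit of RNA polymerase II, 27.0% (33.2, 56.8 and 42.3 TPM), with replicate 1 highest for the first and replicate 2 highest for the second. Their rows have 1026 and 5799 exon bases. Gapdh had 14.9% on the low level given above.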

How the data were processed

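Polyadenylated RNA from prefrontal cortex was sequenced (TruSeq Stranded mRNA libraries, RNeasy RNA, per the labels' protocols). FastQC, STAR, featureCounts and build mm9 are named in the submitters' processing notes; their versions, the gene annotation and whether counting used strand are details not given in the sources used here. Genes that overlap on opposite strands (10.5% of present genes) cannot be told apart with certainty. The authors deposited raw read counts per gene, with exon length beside them, and no normalization. The single-housed columns were not used.

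TPM was computed from counts and length within each library. SDs are of log2(TPM + 1). Genes entered the spread with a mean of at least 5 TPM and 100 counts, and the least variable ranking with at least 50 TPM. edgeR 4.0.16 and DESeq2 1.42.0 (R 4.3.3) supplied alternative scalings, and edgeR also the coefficient of variation given next. The other calculations used numpy 2.4.6, pandas 2.3.3 and, for rank correlations, scipy 1.17.1, and the code was tested on simulated counts. An edgeR fit with an intercept only gave a common biological coefficient of variation of 13.3%. A chi-square of gene counts gave 17.5 to 40.6 per degree of freedom for the pairs of libraries, above the counting noise of 1 library sequenced again; whether libraries share an animal was not tested. Pseudogene matches came from blast 2.17.0 megablast over 13399 GENCODE vM21 pseudogene transcripts.

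Named genes were the 30 most abundant, the 20 most and 20 least variable, the 5 highest members of each list and those at 0, all members of short receptor, layer, interneuron and reference lists, and genes of highest count; other list members were named after their values were seen. The members and lists were chosen with earlier results of these data known. Of the list members, 13 matched through another symbol and 3 were not matched. No test was run, since there is 1 group. A few genes are left out and not reported here.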

Additional observations from a re-analysis of the deposited data

How the results depend on the processing

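The number of present genes stayed between 12952 (at 2 TPM) and 14732 (at least 10 counts in each library) under the alternatives tried. With an effective length (exon length minus 200 bases) the 10 and 100 most abundant genes held 3.79% and 17.5% of TPM, and with no length correction 3.05% and 15.4% of counts, with 60 of the 100 genes shared. The median SD was 0.0965 with no filter, and 0.0879 to 0.129 when 1 replicate was left out, lowest without replicate 1. Of the 50 most variable genes, 9 were shared with no filter and 26 with a filter of 20 TPM, and leaving out a replicate kept 18 to 44: 18 without replicate 1, 27 without replicate 2 and 44 without replicate 3. Of the 50 least variable, 12 were shared with no filter, 30 at 20 TPM, 0 under TMM scaling, 0 under DESeq2 size factors, and 3 to 8 when a replicate was left out. Except for the filters, left-out replicates and scalings, which change the genes, libraries or values ranked, the cause was not tested. Shares of TPM moved by more than 1 SD for 17 of 59 lists under effective length and for 13 without the 10 most abundant genes, and ratios of marker genes for 4 of 24 under effective length. Leaving 1 of 3 libraries out cannot move a mean by 1 SD, so the size of the shift is given instead: the share of the blood cell list moved by over 1.5 times, from 0.00542% to 0.00332% of TPM without replicate 1, and those of the other lists and the 24 ratios by less. The striatal share was 0.0893% of TPM, and 0.0600% without replicate 1. The least variable genes were not ranked by the coefficient of variation with counting subtracted, because many tie at 0. No paired analysis was possible because the libraries form a single group and no contrast was fitted. Depth limits statements on genes near or below 0.120 to 0.145 TPM at the median exon length, and below higher levels for shorter genes.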

Other observations

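Receptors for modulatory transmitters covered a wide range of low levels, and 33 of 40 listed genes were present. Chrm1, a muscarinic receptor of pyramidal cells, was highest with 105, 154 and 136 TPM, followed by the cannabinoid receptor Cnr1 with 83.5, 111 and 89.2 TPM and the adrenergic receptor Adra1d with 44.8, 74.5 and 74.7 TPM. Among serotonin receptors Htr2a led with 13.5, 33.6 and 22.8 TPM, then Htr5a with 12.9, 17.1 and 15.8 TPM and Htr1a with 13.5, 14.7 and 14.2 TPM. Htr2a spread over a 2.48-fold range and Htr1a over 1.09-fold. The oxytocin receptor Oxtr had 4.23, 4.19 and 3.97 TPM, the vasopressin receptor Avpr1a 0.163, 0.403 and 0.202 TPM and the opioid receptor Oprm1 0.288, 0.741 and 0.238 TPM. Drd4 and Drd5, dopamine receptors found in cortex, had 1.30, 1.76 and 1.34 TPM and 5.43, 3.87 and 3.43 TPM in turn, and Drd3 had 0, 0 and 0.134 TPM.

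The lactate dehydrogenase genes kept similar proportions over the libraries, whereas the signalling adaptor genes Ywhah and Ywhae changed order between replicate 1 and replicates 2 and 3. Ldhb, the lactate dehydrogenase of oxidative tissue, was 1.98, 1.83 and 1.89 times Ldha, and the adaptor genes Ywhag, Ywhah and Ywhae had 1133, 1352 and 1323 TPM, 1006, 1235 and 1197 TPM and 1078, 1060.1 and 1090.0 TPM in turn, while Sfn, the epithelial member of that family, had 2.69, 2.30 and 2.73 TPM. The ribosomal protein genes with the highest levels were Rplp1 with 2076, 1589.9 and 1812 TPM and Rps15 with 1384, 895 and 1137 TPM.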
